A study of Mus musculus with 8 samples.

Results

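The genes described here are Son and 9 genes of serine- and arginine-rich (SR) or SR-related splicing proteins, which are Srsf1, Srsf2, Srsf3, Srsf5, Srsf6, Srsf7, Srsf10, Srsf11 and Srrm2. They were chosen because probe sets of Son and of Srsf11 lay far from wild type on the arrays labelled homozygous in an earlier look at the same table, so the differences between homozygous and wild type below are a description and were not tested. Every probe set that the annotation assigns to 1 of these genes was taken, on all 8 arrays. Of the 10 genes, 9 had at least 1 probe set, 40 probe sets in all, out of 18193 named genes and 45037 probe sets on the array. Srsf7 was not analysed here.

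The arrays measured total RNA of mouse retina, dissected away from the retinal pigment epithelium (RPE) at postnatal day 40 in mice labelled as strain BALB/c AJ. The allele studied is a null allele of Nxnl1, the gene of rod-derived cone viability factor. By label, 3 arrays are homozygous for it (ko/ko, HOM), 2 are heterozygous (ko/wt, HET) and 3 are wild type (wt/wt, WT), and a ninth sample named in the design was not analysed here. The labels do not say whether each array stands for a different animal, and p-values therefore rest on a spread between samples that may be technical.

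SR proteins carry domains rich in arginine-serine repeats, bind exonic enhancers and recruit the spliceosome to nearby splice sites. They are stored in nuclear speckles, whose core is built around the large proteins Son and Srrm2, and kinases of the Clk and Srpk families control their release and import. Many SR genes limit their own output through alternative exons or introns that send the transcript to decay, so probe sets placed on different stretches of 1 such gene can measure different transcripts. Nxnl1 itself makes its short secreted product by keeping an intron.

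The targeted gene went against the label on 2 arrays. The brighter Nxnl1 probe set had log2 levels of 6.13, 8.76 and 6.13 on the HOM arrays and 8.65 and 6.75 on the HET arrays, against 9.22, 8.87 and 8.65 on the WT arrays. The array labelled HOM 2 thus lay among the wild types, and the array labelled HET 2 lay nearer to HOM 1 and HOM 3. HOM, HET and WT below always mean the label. The arrays also differed in the Affymetrix actin controls. Their 5′ minus 3′ log2 difference falls when fewer labelled copies reach the 5′ end of a transcript. That difference was -1.74, -0.69 and -1.26 on the HOM arrays and -0.90 and -0.71 on the HET arrays, against -1.81, -1.04 and -0.80 on the WT arrays. The same difference for the GAPDH controls was -0.31, 0.06 and -0.12 on the HOM arrays and -0.01 and 0.03 on the HET arrays. On the WT arrays it was -0.47, -0.02 and 0.07. RNA integrity itself was not measured here. The array medians lay between 6.11 and 6.21. Retinal identity was clear on every array: the 8 rod markers measured averaged 13.2 to 13.4, close to the top of the scale.

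All 7 Son probe sets averaged higher on the HOM arrays and on the HET arrays than on the WT arrays, while the probe sets of the SR genes mostly lay close to wild type. Taken as the mean of the 7 probe sets, Son stood at 10.004, 9.35 and 10.11 on the HOM arrays and at 10.10 and 10.23 on the HET arrays, against 9.04, 9.37 and 9.45 on the WT arrays. HOM 1, HOM 3 and both HET arrays lay above every WT array, and HOM 2 lay inside the WT range. The array HET 1 had a wild-type level of Nxnl1 together with a Son mean above all WT arrays. In whole retina, a change in how many cells of a type are present and a change in RNA per cell cannot be told apart.

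**Figure D1:**
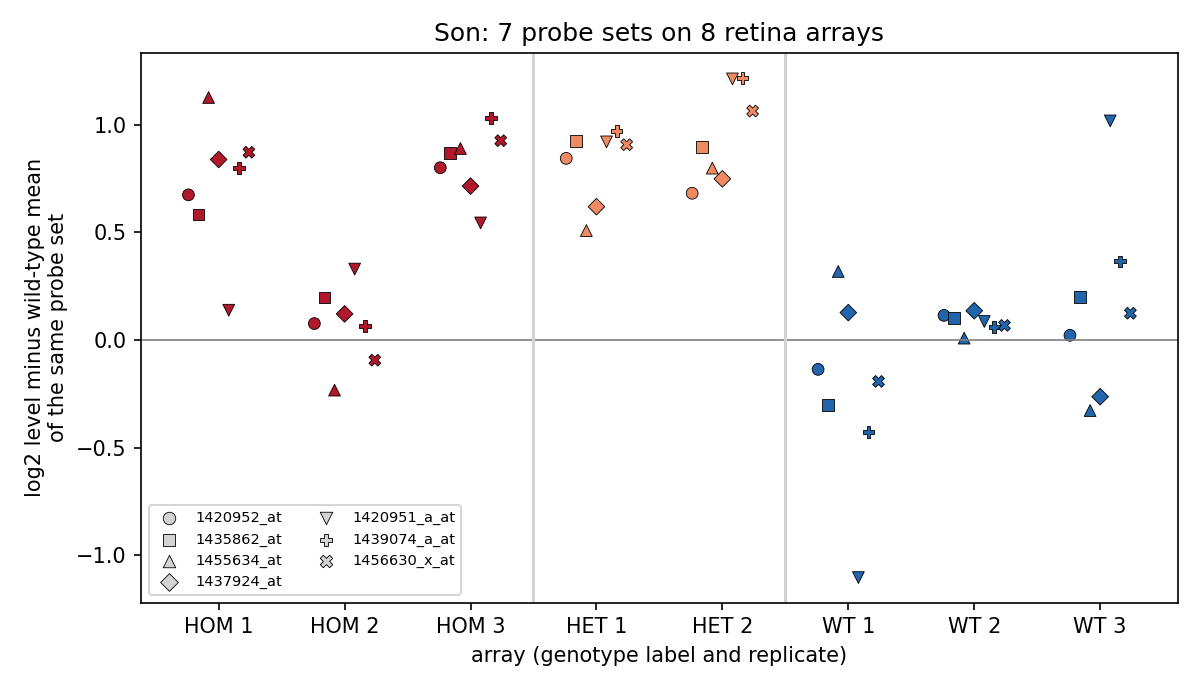
Log2 level of each Son probe set minus its own wild-type mean (y axis) on the 8 arrays (x axis, HOM in red, HET in orange, WT in blue), 1 symbol per probe set. On HOM 1, HOM 3, HET 1 and HET 2 every symbol lies above 0, while probe set 1420951_a_at is spread most widely over the WT arrays.

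The brightest Son probe set, 1420952_at, had levels of 13.02, 12.42 and 13.15 on the HOM arrays and 13.19 and 13.03 on the HET arrays, against 12.21, 12.46 and 12.37 on the WT arrays. That is a mean of 12.86 ± 0.39 (SD, n = 3) for HOM and 13.11 ± 0.11 (SD, n = 2) for HET, against 12.35 ± 0.13 (SD, n = 3) for WT. Both HET arrays exceeded every WT array, and HOM 2 did not. Probe set 1435862_at read 11.21, 10.82 and 11.49 on the HOM arrays and 11.55 and 11.52 on the HET arrays, against 10.32, 10.73 and 10.82 on the WT arrays. Here too the HET arrays stood clear of the wild types, and they also lay above all 3 HOM arrays.

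The probe sets 1455634_at and 1437924_at formed a closely matched pair, with a correlation of 0.94 over the 8 arrays. For 1455634_at the levels were 10.41, 9.05 and 10.17 on the HOM arrays and 9.79 and 10.08 on the HET arrays, against 9.60, 9.29 and 8.95 on the WT arrays. For 1437924_at they were 9.73, 9.01 and 9.61 on the HOM arrays and 9.51 and 9.64 on the HET arrays, against 9.02, 9.03 and 8.63 on the WT arrays. On both, HOM 1 was the highest of all arrays and WT 3 the lowest.

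A second closely matched group held 1439074_a_at, 1456630_x_at and 1435862_at, with correlations of 0.95 to 0.98. The brightest probe set, 1420952_at, correlated with these at 0.93 to 0.97 and with 1437924_at at 0.89. As 1437924_at and 1456630_x_at correlated at 0.88, the pair and the group were not sharply apart. Probe set 1439074_a_at read 8.82, 8.08 and 9.05 on the HOM arrays and 8.99 and 9.23 on the HET arrays, against 7.59, 8.08 and 8.38 on the WT arrays. Probe set 1456630_x_at read 8.07, 7.11 and 8.13 on the HOM arrays and 8.11 and 8.27 on the HET arrays, against 7.01, 7.27 and 7.33 on the WT arrays. On both of these WT 1 was the lowest, HOM 2 lay within the WT range, and the HET arrays were above every wild type.

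Probe set 1420951_a_at departed from the rest. Its levels were 8.77, 8.96 and 9.18 on the HOM arrays and 9.56 and 9.85 on the HET arrays, against 7.53, 8.72 and 9.65 on the WT arrays. The WT arrays alone spanned nearly the whole range, and the groups overlapped. It correlated at 0.04 with 1455634_at and at 0.21 with 1437924_at, but at 0.77 with 1439074_a_at. No pair of Son probe sets correlated below 0, and the median over the 21 pairs was 0.79. The points of each correlation share the 8 arrays and their actin differences.

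As a description, the HOM minus WT differences of the 7 Son probe sets ran from 0.34 for 1420951_a_at to 0.63 for 1439074_a_at, with a median of 0.56 on the log2 scale. In none of them did the HOM arrays lie wholly above the WT arrays, which 2.63% of all probe sets did; none lay wholly below, against 1.84%. Without the arrays HOM 2 and HET 2, the differences ran from 0.34 to 1.01. Without the arrays HOM 1 and WT 1, which had the lowest actin differences, 6 of them ran from 0.32 to 0.49 and 1420951_a_at turned to -0.12; without WT 1 alone it was -0.21, and without WT 3 it was 0.85.

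Between the HET and WT arrays, which are the same wild-type arrays as in the comparison that chose the genes, Son was higher on all 7 probe sets. The log2 differences were 0.76 (SE 0.21) for 1420952_at, 0.91 (SE 0.21) for 1435862_at, 1.09 (SE 0.31) for 1439074_a_at and 0.99 (SE 0.28) for 1456630_x_at. They were 0.68 (SE 0.22) for 1437924_at, 0.65 (SE 0.37) for 1455634_at and 1.07 (SE 0.50) for 1420951_a_at. By limma, fitted and adjusted over all 45037 probe sets, none of the 7 passed, with an adjusted p of 0.9999 for each, and 0% of all probe sets were called. At an unadjusted p under 0.05 limma gave 5 of the 7, while 0.511% of all probe sets passed that level upward. In either direction 516 of the 45037 did, far fewer than that level gives where no probe set differs. With the actin difference as a covariate it was 1584. The lack of calls is therefore not evidence that the genotypes were alike. For Son this comparison is a description, as the wild-type arrays helped choose Son and the 7 probe sets read 1 gene. With 2 HET arrays the precision is low: without HET 2 and HOM 2 the HET group is 1 array, and the differences then ran from 0.51 to 0.97.

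The same comparison can be read through the overlap of single arrays, for Son likewise as a description. The HET arrays lay wholly above the WT arrays in 8 of the 40 member probe sets, against 7.03% of all probe sets, and 6 of the 8 were probe sets of Son. The other two were 1438688_at of Srrm2 and 1449121_at of Srsf10. Wholly below the WT arrays was 1 member probe set, 1423982_at of Srsf10, against 7.2% of all probe sets. The HOM arrays lay wholly below the HET arrays in 3 member probe sets, against 5.68% of all, which were 1435862_at and 1420951_a_at of Son and 1438688_at of Srrm2. No member lay wholly above, against 6.75% of all.

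Markers of the pigment epithelium differed between arrays but not beyond the test. Of 8 such markers, 7 averaged lower on the HET arrays than on the WT arrays, with a median log2 difference of -0.61. By limma, 4 reached an unadjusted p under 0.05, none after adjustment. That unadjusted level was reached by 213 of all 18193 genes, each read through its brightest probe set. The mean level of these markers was 8.98, 8.80 and 8.43 on the HOM arrays and 8.34 and 8.49 on the HET arrays, against 9.10, 9.08 and 8.54 on the WT arrays. HOM 3 lay between the HET arrays, and WT 3 lay close above them. Their part in the Son differences was not tested.

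Son lies on chromosome 16, and its neighbours were read in the order of the reference annotation, after the Son values had been seen. Donson, the gene next after Son, encodes a protein of DNA replication. Its probe set 1426739_at had log2 levels of 10.02, 8.71 and 9.67 on the HOM arrays and 9.35 and 9.75 on the HET arrays, against 8.87, 8.82 and 8.96 on the WT arrays. HOM 1, HOM 3 and both HET arrays lay above every WT array, and HOM 2 lay below them all. The HET minus WT difference was 0.67 (SE 0.33, limma adjusted p 0.9999), and the HOM minus WT difference was 0.58. Over the 8 arrays this probe set correlated with the 7 Son probe sets at 0.35 (1420951_a_at) to 0.92 (1455634_at). The second Donson probe set, 1457596_at, lay near the bottom of the scale, with differences of 0.13 for HET minus WT and 0.22 for HOM minus WT.

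None of the other 7 neighbours had that pattern. Gart, an enzyme of purine synthesis that lies next before Son, had a HET minus WT difference of 0.01, and Itsn1, an endocytic scaffold, had 0.01. Those of Ifngr2, Tmem50b, Dnajc28, Gm10785 and Cryzl1 ran from -0.12 to 0.19.

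**Figure D2:**
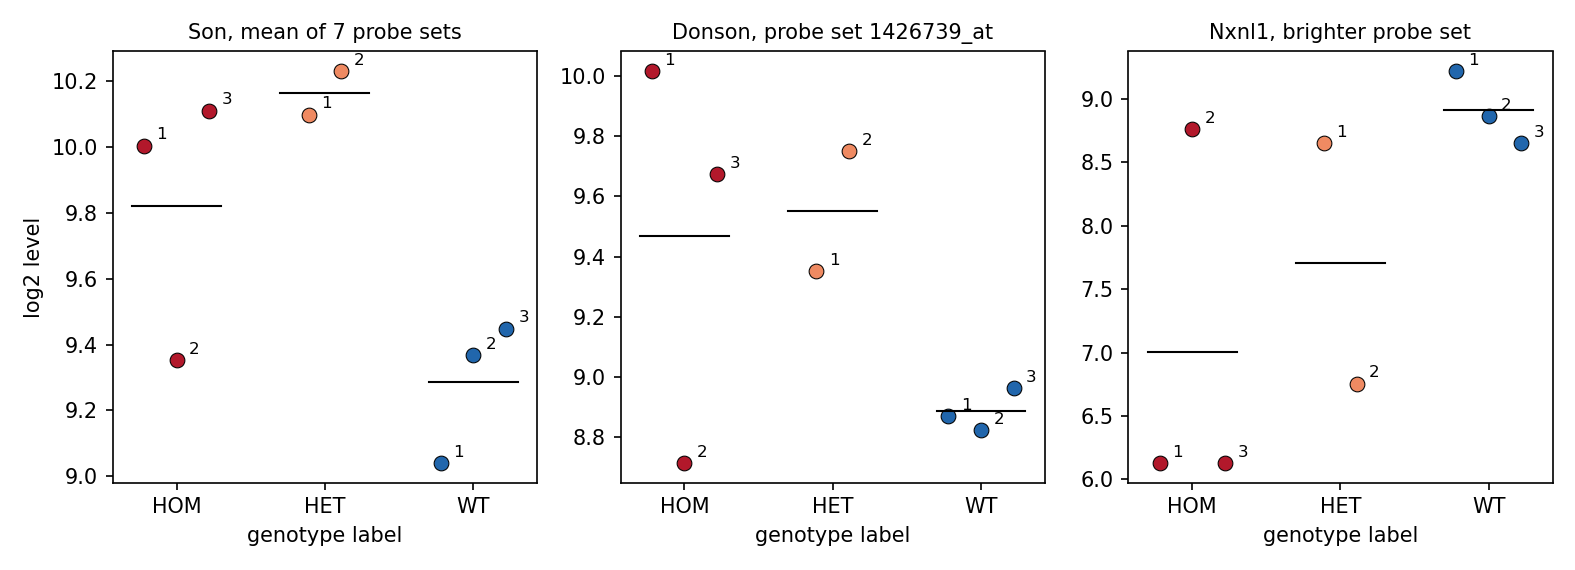
Log2 level (y axis) of the Son mean of 7 probe sets, of Donson and of Nxnl1 by genotype label (x axis), 1 point per array numbered by replicate, with a line at the group mean. For Son and Donson, HOM 2 sits apart from the other HOM arrays, among or below the WT arrays; for Nxnl1 it sits among the WT arrays, while HET 2 sits below HET 1.

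The 250 bases before the annotated start of Son are shown because all 7 of its probe sets averaged higher on the HET than WT arrays. They are set beside those of Srsf6, all 4 of whose probe sets had a positive slope on the actin difference, given further on. Both come from RefSeq on build GRCm38.p6, plus strand, at chr16:91647574-91647823 for Son and chr2:162931258-162931507 for Srsf6. Capitals mark a CCAAT box (CCAAT, or ATTGG when read on the other strand) in Son and a GC box (GGGCGG, or CCGCCC on the other strand) in Srsf6.
Son: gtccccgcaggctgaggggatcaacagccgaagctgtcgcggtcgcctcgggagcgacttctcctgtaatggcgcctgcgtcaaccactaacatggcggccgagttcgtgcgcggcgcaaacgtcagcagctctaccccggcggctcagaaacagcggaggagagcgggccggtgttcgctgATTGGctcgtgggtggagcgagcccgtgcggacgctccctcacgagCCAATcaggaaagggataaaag
Srsf6: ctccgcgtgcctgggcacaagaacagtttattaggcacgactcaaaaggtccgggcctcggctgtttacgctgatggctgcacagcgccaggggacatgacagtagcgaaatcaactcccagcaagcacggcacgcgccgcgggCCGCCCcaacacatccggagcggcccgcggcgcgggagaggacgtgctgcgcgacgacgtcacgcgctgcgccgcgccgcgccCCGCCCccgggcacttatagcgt
Son holds 2 CCAAT matches and no GC box in this window, and Srsf6 holds 2 GC boxes and no CCAAT match. On both strands, CCAAT occurs in 34.5% of 27025 mouse promoter windows of this length and in 4 of the 10 member genes. GGGCGG occurs in 32.9% of the windows and in 7 of the 10. No window of the pair holds TATAAA, which 13.0% of all windows hold. A match to these letters is a description of the sequence, not a bound site.

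Srrm2, the partner of Son in the speckle core, had 3 probe sets, and none had HOM 1 above every WT array as the Son mean did. On 1438688_at the levels were 10.89, 11.55 and 11.69 on the HOM arrays and 11.69 and 11.71 on the HET arrays, against 11.23, 11.51 and 11.36 on the WT arrays. The HET arrays were the highest of all, as on 1435862_at of Son, but HOM 1 was the lowest. The HET minus WT difference was 0.33 (limma adjusted p 0.9999). Probe set 1437638_at likewise had its lowest value on HOM 1, with 8.07, 9.49 and 9.50 on the HOM arrays and 9.37 and 9.12 on the HET arrays, against 8.85, 9.40 and 9.04 on the WT arrays. Probe set 1427902_at stayed between 10.36 and 10.71 on all arrays.

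Srsf11, an SR-related protein with links to splice-site selection, had 4 probe sets that did not act as 1. On 1439095_at the levels were 5.89, 6.80 and 6.54 on the HOM arrays and 6.76 and 6.75 on the HET arrays, against 6.75, 6.88 and 7.15 on the WT arrays. HOM 1 was the lowest by a wide margin, HOM 2 lay within the wild-type range, and the group means gave a HOM minus WT difference of -0.52. Without HOM 1 that difference was -0.26, and without HOM 2 it was -0.71. The other 3 probe sets of Srsf11 had HOM minus WT differences of -0.03, -0.0041 and 0.01. Probe set 1427269_at correlated at -0.69 with 1452371_at and at -0.63 with 1430077_at.

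Among the remaining 6 genes, limma called no probe set between genotypes. Their HOM minus WT differences were below 0 on every probe set and ran from -0.33 on a Srsf3 probe set to -0.01 on a Srsf1 probe set. Their HET minus WT differences ran from -0.22 on 1423982_at of Srsf10 to 0.24 on 1418527_a_at of the same gene. Over all 40 member probe sets the HET minus WT difference was above 0 in 21 and below 0 in 19, with a median of 0.03, against a median of 0.0018 over all probe sets. The spread within a group was often larger than these differences, as the arrays of 1 label differed by over 1 log2 unit on several probe sets.

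That spread went with the actin difference. The log2 level of every probe set was regressed on the actin 5′ minus 3′ difference with the genotype label in the model. The actin difference itself played no part in choosing the genes. The HOM and WT levels of Son and Srsf11 did, and those levels also enter this fit. A slope of 1 means that the log2 level rises by 1 when the actin difference rises by 1. By limma with an adjusted p under 0.05, 16 of the 40 member probe sets had a slope, 13 positive and 3 negative, against 10.3% of all probe sets in either direction, 5.04% positive and 5.29% negative. The members' median slope was 0.36, and that of all probe sets was -0.0089. Most member probe sets lay above the array medians, and brighter probe sets were called more often. With probe sets below the median level left out, 4201 of 22519 had a slope past the threshold, 1798 positive and 2403 negative. Their median slope was -0.06.

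**Figure D3:**
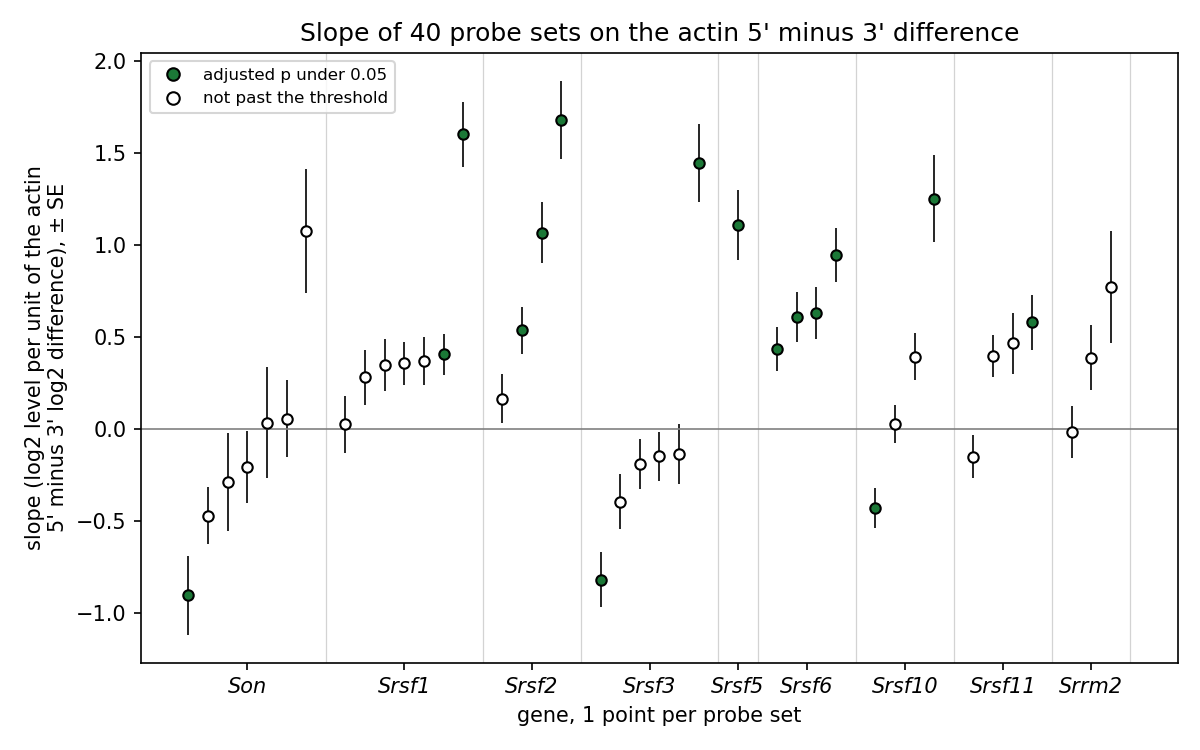
Slope of the log2 level on the actin 5′ minus 3′ log2 difference (y axis, with 1 SE) for each of the 40 probe sets, grouped by gene (x axis) and sorted within a gene. Filled points pass an adjusted p of 0.05; all 4 points of Srsf6 are filled and positive, and Srsf3 and Srsf10 each have a filled point on either side of 0.

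This count rested on few arrays. It was 0 without WT 1, 4 without HOM 2, 7 without HOM 1 and 8 without WT 3, and 12 to 15 without any other single array. Without the arrays HET 2 and HOM 2 it was 1, without WT 1 and HOM 1 it was 0, and with the GAPDH 5′ minus 3′ difference in place of actin it was 13. Lens markers moved with the actin difference as well: all 9 had a negative slope, with a median of -3.07, and 3 passed the adjusted threshold. Of all genes read through their brightest probe set, 7.42% had a negative slope past it. The mean level of the lens markers was 8.16, 4.87 and 6.91 on the HOM arrays and 5.14 and 7.32 on the HET arrays, against 8.04, 5.73 and 5.01 on the WT arrays. Their part in the slopes was not tested.

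Srsf6, which encodes an SR protein that promotes exon inclusion, had a positive slope on all 4 of its probe sets. On 1448454_at the levels were 10.38, 11.39 and 11.11 on the HOM arrays and 11.27 and 11.12 on the HET arrays, against 10.63, 11.25 and 11.71 on the WT arrays. HOM 1 and WT 1 were the lowest. The slope was 0.94 (SE 0.15, limma adjusted p 0.00996). The 3 other probe sets had slopes of 0.63, 0.61 and 0.44, and the 6 pairs of probe sets correlated at 0.91 to 0.98.

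Srsf2, which binds exonic enhancers and is a classical speckle marker, had 3 of 4 positive slopes past the threshold. Probe set 1415807_s_at had 8.44, 9.90 and 8.88 on the HOM arrays and 9.49 and 9.46 on the HET arrays, against 8.16, 9.32 and 10.37 on the WT arrays. The arrays of 1 label differed by up to 2.21 log2 units, again with HOM 1 and WT 1 at the bottom. The slope was 1.68 (SE 0.21, limma adjusted p 0.0058). The slopes of 1452439_s_at and 1427504_s_at were 1.07 and 0.54, and that of 1427816_at was 0.17, which did not pass.

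Srsf1, the founding SR protein, had 2 of 7 slopes past the threshold. Probe set 1452430_s_at read 9.68, 11.20 and 10.66 on the HOM arrays and 11.01 and 10.88 on the HET arrays, against 9.65, 10.93 and 11.58 on the WT arrays. Its slope of 1.60 (SE 0.18, limma adjusted p 0.0038) was by far the steepest of the gene, the next being 0.41 on 1428100_at. Probe set 1457136_at lay near the bottom of the scale, between 3.33 and 3.97.

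Srsf5 was measured by a single probe set, 1423130_a_at. It encodes another SR protein of the classical family. The levels were 11.76, 12.92 and 12.59 on the HOM arrays and 12.96 and 12.54 on the HET arrays, against 11.85, 12.71 and 13.14 on the WT arrays. HOM 1 and WT 1 were again the lowest. The slope was 1.11 (SE 0.19, limma adjusted p 0.0131).

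In Srsf3 and Srsf10 the probe sets of 1 gene moved in opposite directions. Both signs past the threshold within a gene were seen in 107 of the 1949 genes with 4 or more probe sets, or 5.49%. Srsf3 encodes the smallest SR protein, which also serves in mRNA export. Its probe set 1438215_at read 6.54, 7.89 and 7.16 on the HOM arrays and 7.54 and 7.67 on the HET arrays, against 6.66, 7.37 and 8.54 on the WT arrays. The slope was 1.45 (SE 0.21, limma adjusted p 0.0088). Its probe set 1416151_at read 9.62, 8.78 and 9.17 on the HOM arrays and 8.86 and 9.20 on the HET arrays, against 9.79, 9.06 and 8.86 on the WT arrays. The slope was -0.82 (SE 0.15, limma adjusted p 0.0158). HOM 1 and WT 1 were lowest on the one and highest on the other, and the pair correlated at -0.85, the lowest of the 84 pairs within the member genes. The other 4 probe sets of Srsf3 had slopes of -0.39 to -0.13 that did not pass.

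Srsf10 encodes a splicing regulator that acts as a repressor when dephosphorylated. Its probe set 1418527_a_at read 7.35, 8.23 and 7.59 on the HOM arrays and 7.95 and 8.41 on the HET arrays, against 7.07, 7.82 and 8.92 on the WT arrays. The slope was 1.25 (SE 0.24, limma adjusted p 0.0170). Its probe set 1423982_at read 9.59, 8.99 and 9.38 on the HOM arrays and 9.14 and 9.19 on the HET arrays, against 9.56, 9.33 and 9.25 on the WT arrays. The slope was -0.43 (SE 0.11, limma adjusted p 0.0423), and the pair correlated at -0.72. Probe sets 1418526_at and 1418527_a_at, by contrast, correlated at 0.99, the highest of the 84 pairs.

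**Figure D4:**
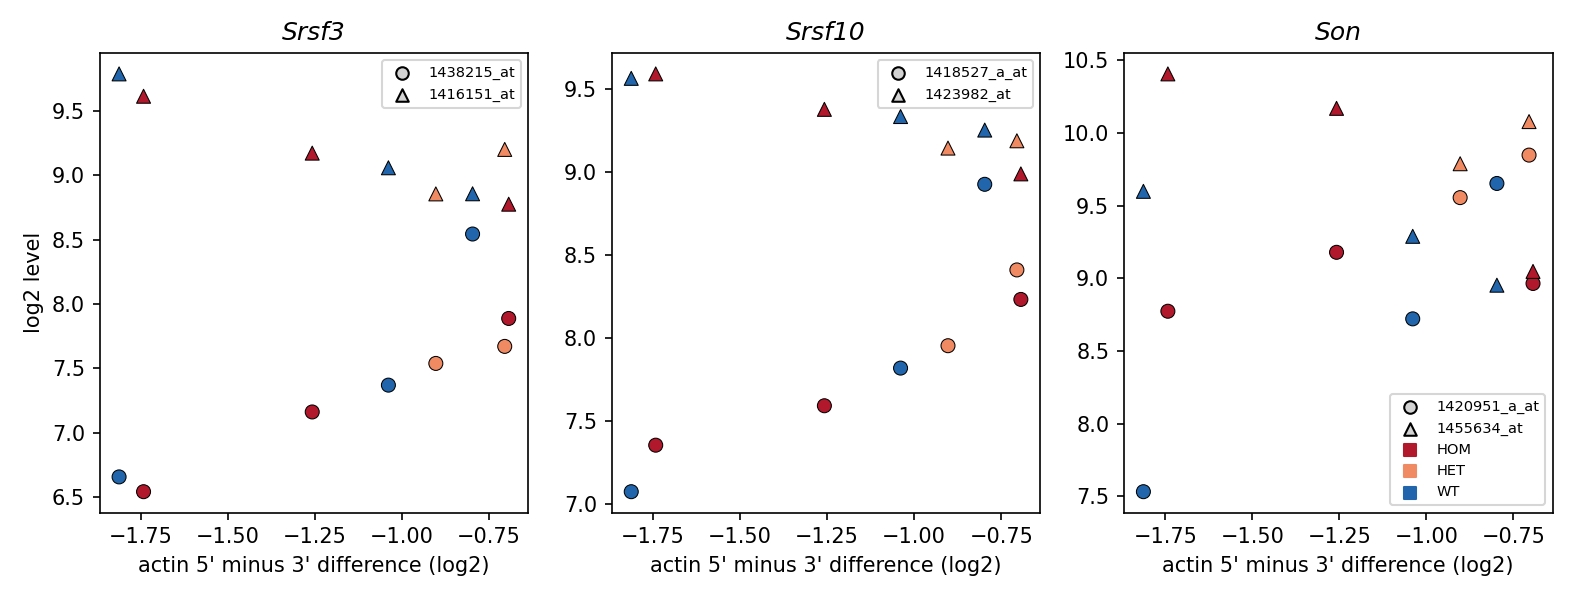
Log2 level (y axis) against the actin 5′ minus 3′ log2 difference (x axis) for 2 probe sets each of Srsf3, Srsf10 and Son, 1 point per array, coloured by genotype label. In Srsf3 and Srsf10 the circles climb and the triangles descend to the right; in Son the HOM 1, HOM 3 and HET triangles lie above the WT ones.

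Son itself had 1 slope past the threshold, -0.90 (SE 0.22, limma adjusted p 0.0339) on 1455634_at. The slope of 1420951_a_at was 1.08 (SE 0.34) and did not pass (limma adjusted p 0.0736), and the other 5 ran from -0.47 to 0.06. Those 5 depended on the arrays kept. Without WT 1 and HOM 1 they ran from -1.28 to -0.87, and without HET 2 and HOM 2 from -0.28 to 0.70. On all arrays, only 1439095_at passed for Srsf11, with 0.58 (SE 0.15, limma adjusted p 0.0423), and for Srrm2 none of 3 passed.

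Probe sets of 1 gene were then set against each other directly. For each probe set, the mean of the other probe sets of its gene was subtracted on every array, and the same slope was fitted to this divergence. Divergences cancel within a gene by construction, so a steep probe set pushes the slopes of its partners to the opposite sign. Of the 39 member probe sets that have a partner, 11 passed, 5 positive and 6 negative, against 24% of the 25762 probe sets tested, so the share of members lay near that of the table. In Son the divergence slope was 1.37 (SE 0.22, limma adjusted p 0.0038) for 1420951_a_at and -0.94 (SE 0.16, limma adjusted p 0.0044) for 1455634_at. In Srsf3 it was 1.78 for 1438215_at and -0.93 for 1416151_at, and in Srsf10 it was 1.25 for 1418527_a_at and -0.99 for 1423982_at. Srsf1 diverged by 1.30 for 1452430_s_at and -0.53 for 1430982_at, Srsf2 by 1.09 for 1415807_s_at and -0.93 for 1427816_at, and Srsf11 by -0.63 for 1427269_at. The level slopes of 1430982_at, 1427816_at and 1427269_at were 0.03, 0.17 and -0.15, and none of these passed. No divergence slope of Srsf6 or Srrm2 passed. The count was 4 without WT 1, 9 to 12 without any other single array, 0 without HET 2 and HOM 2, and 0 without WT 1 and HOM 1. Between genotypes, limma called 0% of the divergences of the table in any comparison. At an unadjusted p under 0.05 it gave 165 for HOM minus WT, 196 for HET minus WT and 199 for HOM minus HET. Out of 25762, these counts too are far fewer than that level gives where nothing differs. They are not evidence that the genotypes were alike.

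Within genes, 12 of the 84 member pairs correlated below 0, or 14.3%, with a median of 0.75. Over all genes it was 39.4% of 30372 pairs, with a median of 0.18. Where both probe sets were at or above the median level of the table, 15.4% of 78 member pairs and 32.8% of 13174 pairs of all genes were below 0. Of the 12 member pairs, 5 were in Srsf3, 3 in Srsf10, 3 in Srsf11 and 1 in Srsf1.

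Other genes of the splicing machinery were read through 1 probe set each, the brightest. Of all 18193 genes read so, 1.18% had a positive slope past the threshold and 7.42% a negative one, with a median of -0.08; of the 9 member genes, 3 were positive and 1 negative, with a median of 0.39. Among 27 other SR and SR-related genes, 4 were positive and none negative. They were Pnn, a protein of the exon junction and speckle, with a slope of 0.93, Rbm39, a U2AF-related splicing factor, with 0.94, Srek1 with 0.50 and the U1 protein gene Snrnp70 with 0.88. Luc7l3 and Rnps1, the brightest of this list, had slopes of 0.30 and -0.01 that did not pass.

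Of 10 genes for SR protein kinases and the importer, Clk1 and Clk4, kinases that phosphorylate SR proteins in the nucleus, had positive slopes of 0.65 and 0.66. Tnpo3, the importin that carries SR proteins into the nucleus, had a negative one of -0.47. Of 8 genes of speckles, paraspeckles and other nuclear RNAs, the nuclear long noncoding RNAs Rian and Malat1 were positive, with 1.34 and 0.89. Of 22 hnRNP genes, whose proteins often oppose SR proteins, Hnrnpa1 alone passed, with 0.42. Of 23 core spliceosome genes, Snrpd3, an Sm ring subunit, alone passed, with 0.69, while the median of that list was -0.14. None of 7 genes of nonsense-mediated decay passed. Between genotypes limma called no gene of these lists, and none reached an unadjusted p under 0.05 in HOM minus WT or HET minus WT.

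Probe sets with a pattern like that of a member probe set were sought among 18583 probe sets at or above the median level that carry 1 symbol. Names of uncharacterised transcripts (Rik, Gm with digits, LOC and accession-like names) were left out, so closest and most opposite hold among the names kept. To 1420951_a_at, the most variable Son probe set, the closest was Rnf167, a ubiquitin ligase, with a Pearson correlation of 0.996 over the 8 arrays. Next came the translation initiation factor Eif4b with 0.980, Ankrd6 with 0.979, the kinesin subunit Kif3a with 0.976 and the homeobox gene Zfhx4 with 0.967. The most opposite were the Sm ring subunit Snrpg with -0.984, the glial calcium-binding protein S100b with -0.972 and the ribosomal protein gene Rpl37a with -0.968. To 1439095_at of Srsf11, among 18586 probe sets, the closest were Tsacc with 0.972, the Ras GTPase activator Rasa1 with 0.959, Hcfc2 with 0.957, elastin (Eln) with 0.953 and Tcl1b1 with 0.951. The most opposite were Ccsap with -0.991, Nt5dc3 with -0.986 and the myosin Myo1d with -0.982. All these correlations are descriptions over 8 arrays, and the probe sets share the labels and actin differences of those arrays.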

How the data were processed

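Total RNA of 8 retina samples was hybridised to 1-colour Affymetrix 3′ arrays. The deposited values are log2 levels. RMA produced them, per the submitters' processing notes, which state neither a version nor settings. RMA makes the array distributions alike, so levels are relative to the bulk of transcripts. Of 45101 probe sets, 64 controls were left out and 45037 tested. The platform annotation given with the data has 1 symbol for 34945 of them, several for 932 and none for 9160; 34741 symbols were updated through gene identifiers. The targets' positions within transcripts were not used here.

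Group means were fitted to all 8 arrays with limma 3.58.1 in R 4.3.3 (lmFit, eBayes, two-sided), without a block, and p-values were adjusted by Benjamini-Hochberg over all probe sets fitted, with a threshold of 0.05. SE is limma's moderated standard error. The slope model adds the actin 5′ minus 3′ difference as a covariate. Divergence is a probe set minus the mean of the other probe sets of its gene. Correlations were computed in Python 3.11.15 with pandas 2.3.3. The scripts were tested on simulated data. Of simulated slopes of 1, limma recovered 45% for levels and 30% for divergences, and of slopes of 2 it recovered 88% and 82%. There the level slope fit also called 2 probe sets that had not been changed. The divergence slope fit called 69 whose own level had not been changed. Partners of a changed probe set diverge by construction, so those 69 cannot be read as false calls. The number of arrays limits the precision.

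All member probe sets are accounted for. From each gene list the 2 brightest genes and up to 4 past the threshold could be named, and for likeness the 5 highest and 3 lowest correlations. The members and lists were chosen with earlier results of these data known. Markers of cone cells, bipolar and Müller glia cells and blood were also read: 2 of 5 cone markers, Pde6c with 0.68 and Arr3 with 0.70, had slopes past the threshold, and none of 7 glial and bipolar or 3 blood markers did. Of all genes read in the same way, 1.18% had a positive slope past the threshold. Alternatives were other normalizations, a filter on dim probe sets, an intensity trend, a replicate block, the actin covariate, fits of 2 groups only and fits without arrays.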

Additional observations from a re-analysis of the deposited data

How the results depend on the processing

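The HET minus WT differences of Son, and the slopes and divergence slopes of members that passed the threshold, kept their sign under every alternative run. Slopes that did not pass could change sign, as on 1420952_at of Son, with 0.21 without HET 2 and HOM 2 against -0.20 on all arrays. The 7 HET minus WT differences of Son kept their direction in all 119 refits and none passed. The 16 slopes past the threshold stayed past it in 155 refits and lost it in 117, and the 11 divergence slopes stayed in 130 and lost it in 46. Of the untested HOM minus WT differences, 1420951_a_at of Son (-0.21 to 0.85) and the 3 near-zero probe sets of Srsf11 did change sign. For HOM minus WT and for HET minus WT the count of probe sets called over the table was 0, and 0 to 1 with an array left out (1 without WT 3). For divergence, HOM minus WT and HET minus WT each gave 0 to 2 with an array left out (2 without WT 3), and HOM minus WT gave 1 with the actin covariate.

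Slopes over the table were called for 4653 probe sets, for 13 (without WT 1) to 4515 with an array left out, with 534 without HOM 2, 1684 without HOM 1 and 2955 without WT 3. They numbered 49 without HET 2 and HOM 2, 0 without WT 1 and HOM 1, and 7002 with no genotype term. Member slopes numbered 16, and 0 (without WT 1) to 15 with an array left out; they were 1 without HET 2 and HOM 2 and 0 without WT 1 and HOM 1. Divergence slopes numbered 6186, and 1289 (without WT 1) to 5913 with an array left out, with 2202 without HOM 2 and 4077 without HOM 1; they were 0 without HET 2 and HOM 2 and 0 without WT 1 and HOM 1. Member divergence slopes numbered 11, and 4 (without WT 1) to 12 with an array left out; they were 0 without each of those pairs of arrays and 17 with no genotype term. Leaving arrays out leaves fewer samples; the cause was not tested further. With equal array medians, 1963 slopes were positive and 4348 negative, against 2272 and 2381 in the values as deposited, and the median slope was -0.08 against -0.0089. The intensity trend was not run for divergence.

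Whether the replicate numbers pair the arrays was not settled. After removing group means, HOM 1 and WT 1 correlated at 0.62 and HOM 2 and WT 2 at 0.23. The other same-numbered pairs lay between -0.25 and -0.03. With the replicate number as a block, 4 slopes over the table and 0 divergence slopes were called, with 0 of the members in either; the block changed no other call. For the mean of the 7 Son probe sets as the pattern sought, an alternative chosen after seeing the data, 0 of the 5 closest genes were shared with those of 1420951_a_at.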

Other observations

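Among the same 18583 probe sets, the mean of the 7 Son probe sets was closest in pattern to Tfpt, with a correlation of 0.955. Next came Rfx2 with 0.949, Rmc1 with 0.930, P3h3 with 0.927 and Cfap410 with 0.916. The most opposite were Glt28d2 with -0.949, Fat2 with -0.945 and Diablo with -0.944.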
